A study of Zea mays with 16 samples.

Results

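Gibberellin synthesis and DELLA repression were followed in maize leaves through 7 genes, which were chosen by gene ID out of the 46430 IDs counted. Of these, 2 encode DELLA proteins, d8 (Zm00001d033680) and d9 (Zm00001d013465). The other 5 encode enzymes of gibberellin synthesis, namely an1 (Zm00001d032961), d3 (Zm00001d045563), ga20ox1 (Zm00001d034898), ga20ox3 (Zm00001d042611) and d1 (Zm00001d039634). The series compared leaves chilled at 4 °C with control leaves held at 26 °C in the maize lines B73, M37W, B104 and CML333, with 2 libraries in each of the 8 groups. Both temperatures shared a day of 14 h and a night of 10 h, a photon flux of 250 µmol per m2 and s and a humidity of 50% to 70%. The sources used here do not state the age of the plants, how long they were chilled or whether libraries came from separate or pooled plants, so the p-values measure only the spread between these libraries.

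Gibberellins are diterpene hormones that promote stem and leaf elongation. Their synthesis starts in the plastid, where an1 makes the ent-copalyl diphosphate from which the gibberellin skeleton is built. The P450 enzyme of d3 then oxidises ent-kaurenoic acid, the GA20 oxidases trim the intermediate, and the 3-oxidase of d1 makes the active hormone. DELLA proteins hold back growth until active gibberellin, bound by its receptor, has them degraded. Maize plants that lose an1, d3 or d1 are dwarfs, and dominant dwarfs arise from altered d8 or d9. DELLA proteins are controlled largely through their stability, so their transcript level is only part of their regulation.

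Library totals ran from 1780344 to 2705564 counts, so that 1 count stood for 0.370 to 0.562 CPM (counts scaled to a library total of 1000000), and a count of 0 allowed a level of up to 1.11 to 1.69 CPM (3 counts of the library's total). The libraries labelled B104 control stood apart, with correlations of 0.370 to 0.510 to the other 14 libraries, which correlated among themselves at 0.649 to 0.970 (log2(CPM + 1) across genes). Of 8 plastid genes taken as leaf markers, psbA and psaA were at 0 in every library, rbcL in 15 and psaB in 14. The summed level of the 8 was 0.378 to 5.91 CPM in the B104 controls against 37.2 to 376 CPM in the other libraries. For matK alone, the highest B104 control (5.54 CPM) lay above the lowest of the other 14 libraries (4.76 CPM). Chilled CML333 replicate 2 was closer to the CML333 controls (0.847 and 0.852) than to chilled CML333 replicate 1 (0.813). Chilled CML333 replicate 1 was in turn closer to the chilled M37W libraries (0.845 and 0.846) than to its own replicate. The chilling differences summed over lines are therefore also given without the B104 libraries.

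The 6 genes other than d3 were close to the detection limit of this 3′ end sequencing, and so was d3 in chilled B104 and in CML333. Together the 7 genes took 397 of the 36096072 counts of the 16 libraries, and d3 alone held 287, or 72.3% of them. The next were d1 with 43 counts, ga20ox3 with 28, an1 with 20, ga20ox1 with 13, d9 with 5 and d8 with 1. Among the 44146 nuclear gene IDs, of which 16294 had no count at all, 41.4% had a total at or below that of d8 and 72.6% a total at or below that of d3. In 55 of the 96 combinations of a library with one of the 6 genes other than d3, no read was counted. Of the 7 genes, d3 passed the low-count filter and entered edgeR's test, as did 38.8% of the nuclear IDs. The other 6 were tested with an exact permutation test.

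**Figure D1:**
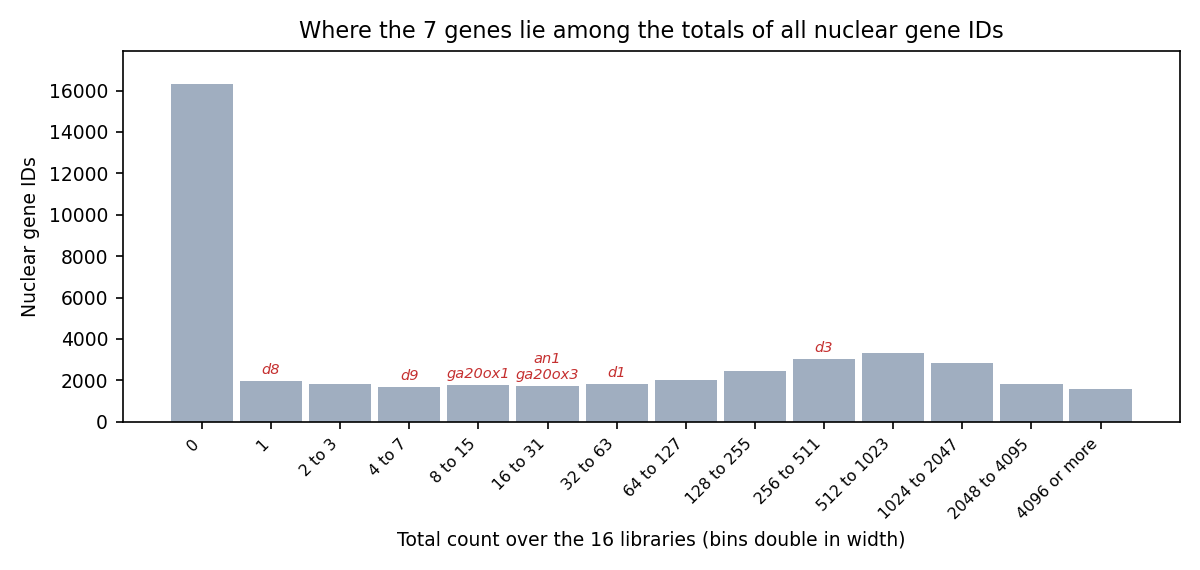
Number of nuclear gene IDs (y axis) by total count over the 16 libraries (x axis, bins that double in width), with the 7 genes written above their bins. d8 to d1 lie between 1 and 43 counts, and d3 has 287.

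**Figure D2:**
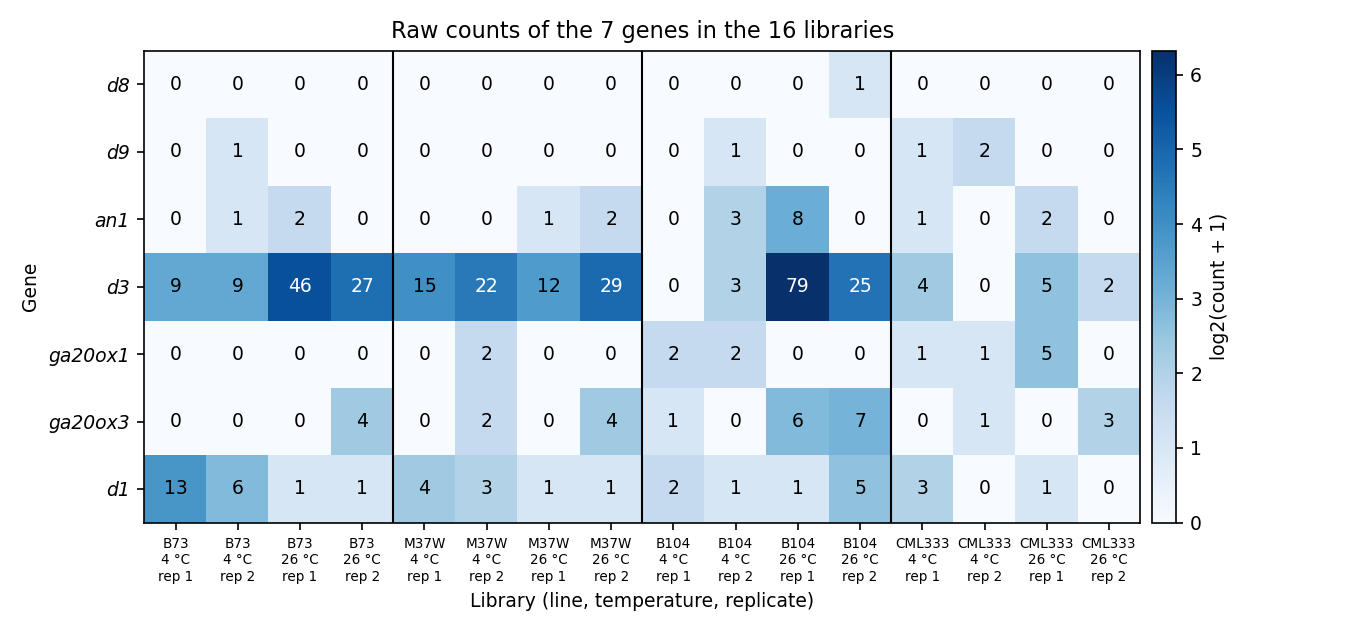
Raw count of each gene (rows) in each library (columns, by line, temperature and replicate), shaded on a log2(count + 1) scale. d3 carries most of the counts, 79 at most, while d8 has a count in 1 library and d9 in 4.

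DELLA transcripts were scarcely counted in any line at either temperature. For d8 there was no count in any of the 8 chilled libraries, which allows up to 0.177 CPM over the group, and 1 count in the 8 control libraries, in the control library B104 replicate 2. The counting interval of its level over all 16 libraries was 0.000701 to 0.154 CPM (95%, exact Poisson, counting error only, as for all counting intervals here).

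For d9, the close relative of d8, the 5 counts all lay in chilled libraries. Chilled CML333 replicates 1 and 2 had 1 and 2 counts, chilled B73 replicate 2 had 1, chilled B104 replicate 2 had 1, and the chilled M37W libraries and all 8 controls had 0. Pooled levels were 0.294 CPM (95% interval 0.0956 to 0.687) in the chilled and 0 CPM (up to 0.157 from a count of 0) in the control libraries. In the exact two-sided permutation test within lines, the chilled minus control difference of d9 was 0.33 on the log2(CPM + 1) scale (p = 0.0833, 16 libraries). As every count of d9 lay in a chilled library, this is the smallest p its counts allow, and the test could not pass. Without the B104 libraries the difference was 0.35 (exact permutation p = 0.167), and without chilled CML333 replicate 2 as well it was 0.30 (p = 0.167). Those p are again the smallest that the counts allow. In CML333 the libraries of the pair of groups did not overlap, as for 39.2% of the 28431 IDs with any count. The log2 ratio of d8 to d9 was -0.330 in chilled and 0.0578 in control libraries on average, a difference of -0.39 (exact permutation p = 0.0556), and of -0.35 without the B104 libraries (p = 0.167). That ratio rests on 6 counts in all, and both p are the smallest that its counts allow. The counting interval of the chilled to control CPM ratio of d9 had a lower end of 1.03 over all lines. Without the B104 libraries that lower end was 0.722. At this depth neither DELLA transcript could pass the exact permutation test for temperature over all 16 libraries, so that test decides nothing about them. Reads shared by d8 and d9, as closely related genes, may have been split or dropped, since no source used here states how reads with several alignments were treated.

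At the entry of the pathway, an1 was seen in 8 of the 16 libraries. It had 0 and 1 counts in chilled against 2 and 0 in control B73, and 0 and 0 in chilled against 1 and 2 in control M37W. It had 0 and 3 counts in chilled against 8 and 0 in control B104, and 1 and 0 in chilled against 2 and 0 in control CML333. Only in M37W did the libraries of the temperatures not overlap, as for 42.1% of IDs there. Summed over the lines there were 5 counts in chilled and 15 in control libraries, a CPM ratio of 0.375 (95% interval 0.107 to 1.09), and 8 of the 15 came from control B104 replicate 1. The log2(CPM + 1) difference was -0.35, and it missed the threshold (exact permutation p = 0.278). Without the B104 libraries there were 2 chilled and 7 control counts (ratio 0.313, 95% interval 0.0317 to 1.64), and the difference was -0.34 (exact permutation p = 0.194).

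The later step of d3 gave the clearest levels, and they differed by line. In B73 the chilled libraries held 3.72 and 5.06 CPM (9 and 9 counts), against 17.8 and 11.1 CPM (46 and 27 counts) in the controls. In M37W the chilled libraries held 7.68 and 10.8 CPM and the controls 5.93 and 13.1 CPM. In B104 the chilled libraries held 0 and 1.34 CPM, against 29.2 and 9.45 CPM in the controls. Every chilled library of B73 and B104 thus lay below both of its controls, whereas the M37W libraries overlapped. In CML333 the chilled libraries held 1.92 and 0 CPM and the controls 2.19 and 0.894 CPM, which also overlapped. Libraries of the temperatures failed to overlap for 44.6% of IDs in B73 and 53.2% in B104. In a leaf sample, fewer cells of a type and less RNA per cell cannot be told apart.

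**Figure D3:**
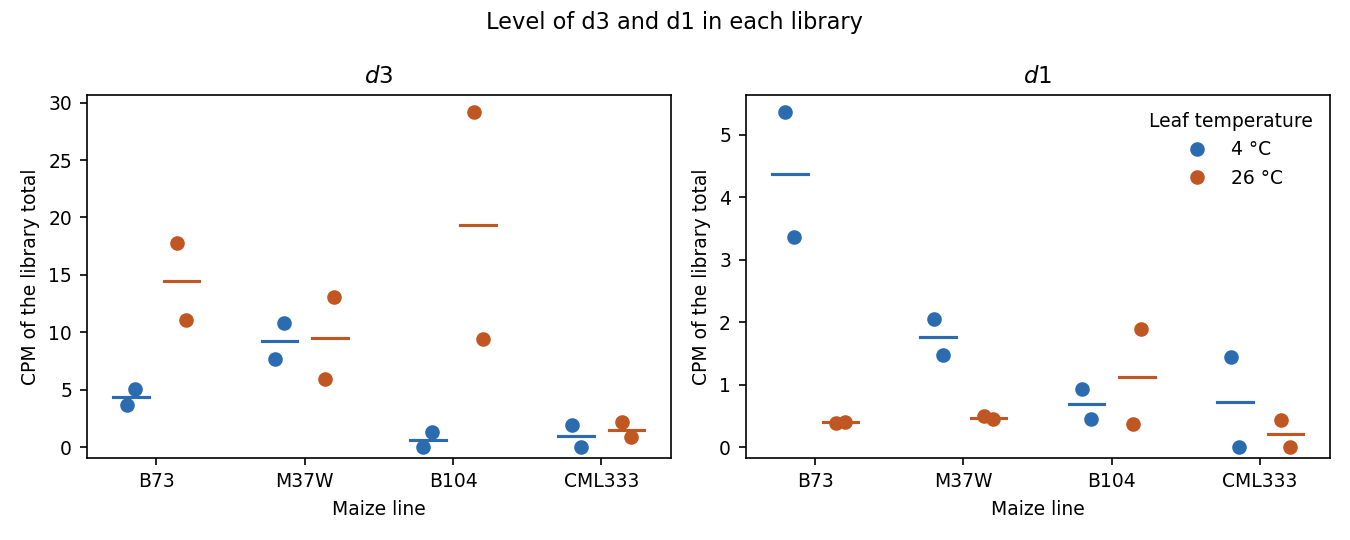
CPM of the library total for d3 (left) and d1 (right) in each library, by line, with chilled leaves (4 °C) left of control leaves (26 °C). Points are libraries and bars the means of 2. For d3 the chilled libraries of B73 and B104 lie below their controls, and for d1 the chilled libraries of B73 and M37W lie above theirs.

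By edgeR's quasi-likelihood test, fitted to all 16 libraries, d3 fell on chilling in B104 with a log2 fold change of -4.63 (SE 1.02, adjusted p = 0.00209), where 51.8% of the 17410 genes tested were called. That call held when any 1 library was left out (adjusted p 0.000359 to 0.0238). Its size, however, rests on 3 chilled counts, and the CPM ratio of 0.035 had a counting interval of 0.00711 to 0.105. Without chilled B104 replicate 2 the remaining chilled B104 library is at 0 and the fitted value was -8.49, which is no bound. The controls of this comparison are the libraries that stood apart, and the summed level of the plastid markers differed with them. Their part in the result was not tested.

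In B73 the mean level of d3 was 4.39 ± 0.946 CPM in chilled and 14.5 ± 4.73 CPM in control leaves (SD, n = 2 each). The log2 fold change of -1.43 (SE 0.810) missed the threshold in edgeR's fit of all 16 libraries (adjusted p = 0.323), where 3.46% of genes were called. In the fit of the B73 and M37W libraries alone, which leaves out the libraries in doubt, the same fold change of -1.45 had an SE of 0.491 and passed (adjusted p = 0.0365), and 27.8% of 15174 genes were called. It also passed in the B73 libraries alone (-1.46, edgeR adjusted p = 0.0463), for which the share of genes called is not given here. Over all alternatives the adjusted p ran from 0.0365 to 0.692, while the fold change stayed between -1.72 and -1.12 when any 1 library was left out.

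In M37W the d3 levels were 9.26 ± 2.24 CPM in chilled and 9.54 ± 5.10 CPM in control leaves (SD, n = 2 each). The log2 fold change was 0.01 (95% interval -1.67 to 1.68, edgeR adjusted p = 1) in the fit of all 16 libraries, where 0.408% of genes were called. It was -0.0029 (95% interval -0.983 to 0.977) in that of B73 and M37W, where 18.9% were called. Both intervals are wide, so the data do not show d3 to be steady in M37W. In CML333 the log2 fold change was -0.47 (SE 1.19, edgeR adjusted p = 0.853), with 15.4% of genes called. It ran from -4.74 to 0.545 when 1 library was left out, the highest value being that without chilled CML333 replicate 2. The lowest, without chilled CML333 replicate 1, is no bound, since the remaining chilled CML333 library is at 0. So d3, the only one of the 7 genes tested in the fit of all 16 libraries, was called in B104 and not in B73, M37W or CML333. The other 6 genes did not enter that fit and could not be called.

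**Figure D4:**
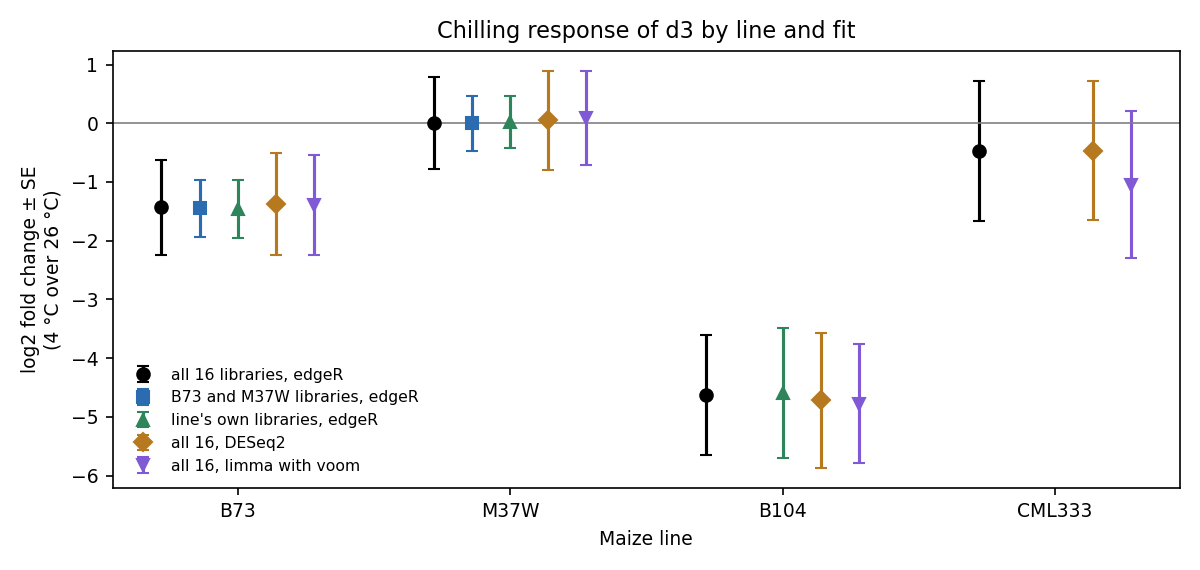
Log2 fold change of d3 (4 °C over 26 °C, y axis) with its SE in each line (x axis), in 5 fits shown by colour and marker. B73 lies near -1.4 and M37W near 0 in every fit shown, B104 below -4, and CML333 has the widest bars.

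Whether the lines differed in their d3 response was tested directly. The response of B73 minus that of M37W was -1.44 (SE 1.12, edgeR adjusted p = 0.700) in the fit of all 16 libraries. It was -1.45 (SE 0.681, adjusted p = 0.197) in the fit of the B73 and M37W libraries, where 10.1% of genes were called, so a difference between these responses was not shown. The test of any difference among the 4 responses missed the threshold (edgeR adjusted p = 0.0569, with 35.3% of genes called). DESeq2 and limma with voom passed it (adjusted p 0.0161 and 0.0371), whereas without the B104 controls the adjusted p was 0.590. How many of all genes these alternative fits called is not given here. Averaged over the lines, d3 fell by 1.63 on the log2 scale (SE 0.494, edgeR adjusted p = 0.0191), with 36.9% of genes called. Without the B104 controls that mean was -0.61 (adjusted p = 0.455), and the call was also lost without control CML333 replicate 1 (adjusted p = 0.0972) or control M37W replicate 2 (adjusted p = 0.0523). In the exact permutation test within lines the mean difference was -1.38 on the log2(CPM + 1) scale (p = 0.0201, 16 libraries), and -0.66 without the B104 libraries (p = 0.12).

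Between lines, d3 was ordered by level as M37W, B73, CML333 and B104 at 4 °C, with means of 9.26, 4.39, 0.961 and 0.669 CPM. Both M37W libraries lay above both B73 libraries and these above both CML333 libraries, while CML333 and B104 overlapped. The share of all IDs that separate between lines is not given here, so this order is only a description. The test of any difference among the chilled groups passed over all 16 libraries (edgeR adjusted p = 0.0433, with 22.6% of genes called). This call is fragile, since it was lost in 11 of the 16 fits that left out 1 library (adjusted p up to 0.164), namely those without any of the 8 B73 and M37W libraries, chilled B104 replicate 1 or either CML333 control. The adjusted p was 0.0338 without the B104 controls and 0.0523 or 0.0563 with the replicate number of the titles or descriptions as a block. The shares of genes called in those fits are not given here.

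At 26 °C the order of d3 was B104, B73, M37W and CML333, with means of 19.3, 14.5, 9.54 and 1.54 CPM. The B104, B73 and M37W controls overlapped as neighbours, and both CML333 controls, at 2.19 and 0.894 CPM, lay below the other 6, which held at least 5.93 CPM. For this separation, too, the share of all IDs is not given here. The test of any difference among the controls passed (edgeR adjusted p = 0.0137, with 63.0% of genes called), and also without the B104 controls (adjusted p = 0.0436, with 29.8% called). It was lost without control CML333 replicate 1 (adjusted p = 0.0622) or 2 (adjusted p = 0.127), and with the replicate number of the descriptions as a block (adjusted p = 0.0629). Between B73 and M37W, the log2 difference of d3 was -1.03 (SE 0.832, edgeR adjusted p = 0.483) at 4 °C and 0.41 (SE 0.754, adjusted p = 0.810) at 26 °C, with 11.1% and 9.48% of genes called.

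The GA20 oxidases of ga20ox1 and ga20ox3 act on the branch of the pathway that leads to the immediate precursor of the active hormone. Neither gene passed the exact permutation test over all 16 libraries. For ga20ox1 the B104 libraries had 2 and 2 counts when chilled against 0 and 0 in the controls, and the CML333 libraries had 1 and 1 when chilled against 5 and 0. Chilled M37W had 0 and 2 against 0 and 0 in its controls, and no B73 library had a count. Only in B104 did the libraries not overlap, as for 53.2% of IDs there. Over all lines there were 8 chilled and 5 control counts, a CPM ratio of 1.80 (95% interval 0.520 to 7.0; log2(CPM + 1) difference 0.28, exact permutation p = 0.389). Without the B104 libraries there were 4 chilled and 5 control counts, which turned the ratio to 0.876 (95% interval 0.174 to 4.07), and the log2(CPM + 1) difference was 0.07 (exact permutation p = 1).

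For ga20ox3 the B104 libraries had 1 and 0 counts when chilled against 6 and 7 in the controls. Counts were 0 and 0 in chilled against 0 and 4 in control B73, 0 and 2 against 0 and 4 in M37W, and 0 and 1 against 0 and 3 in CML333. The temperatures overlapped in every line but B104, where 53.2% of IDs did not overlap and the controls are the libraries that stood apart. The sums were 4 chilled and 24 control counts, a CPM ratio of 0.188 (95% interval 0.0473 to 0.546), and 3 and 11 counts without B104 (ratio 0.298, 95% interval 0.0535 to 1.13). The log2(CPM + 1) difference of -0.70 missed the threshold over libraries (exact permutation p = 0.0741, and 0.389 without the B104 libraries).

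At the last step, d1 was higher in chilled than in control leaves of B73 and M37W, whereas the libraries of B104 and CML333 overlapped. Of the 6 low genes, d8 and d9 had too few counts to pass the exact permutation test over all 16 libraries. Among the 6, d1 alone passed it, and by a narrow margin. In B73 the chilled libraries held 5.37 and 3.37 CPM (13 and 6 counts), against 0.387 and 0.412 CPM (1 and 1 counts) in the controls. In M37W the chilled libraries held 2.05 and 1.48 CPM (4 and 3 counts), against 0.494 and 0.453 CPM (1 and 1 counts) in the controls. Both chilled libraries thus lay above both controls in B73, where 44.6% of IDs did not overlap, and in M37W, where 42.1% did not. In B104 there were 2 and 1 counts in chilled against 1 and 5 in control leaves, and in CML333 3 and 0 in chilled against 1 and 0 in control leaves, with overlap in both.

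The CPM ratio of d1 was 11.3 in B73 (19 against 2 counts, lower end of the 95% interval 2.73) and 3.72 in M37W (7 against 2 counts, 95% interval 0.708 to 36.7). Over all lines the difference of d1 was 0.74 on the log2(CPM + 1) scale, which understates changes of low genes (exact permutation p = 0.0478, 16 libraries, unadjusted for the 6 genes tested; the smallest p possible is 0.00154). That p was above 0.05 in 12 of the 16 tests that left out 1 library, up to 0.114 without control B104 replicate 1. It was 0.0525 with a pseudocount of 0.5 CPM. Without the B104 libraries the difference was 1.07 (exact permutation p = 0.0278), and without chilled CML333 replicate 2 as well it was 1.28 (p = 0.00926, the smallest possible there). Within B73 and M37W it was 1.41 (exact permutation p = 0.0556, again the smallest that their 8 libraries allow). With no low-count filter, edgeR gave d1 a log2 fold change of 3.53 in B73 (SE 1.39, adjusted p = 0.114) and 1.83 in M37W (SE 1.51, adjusted p = 0.813), neither past the threshold.

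**Figure D5:**
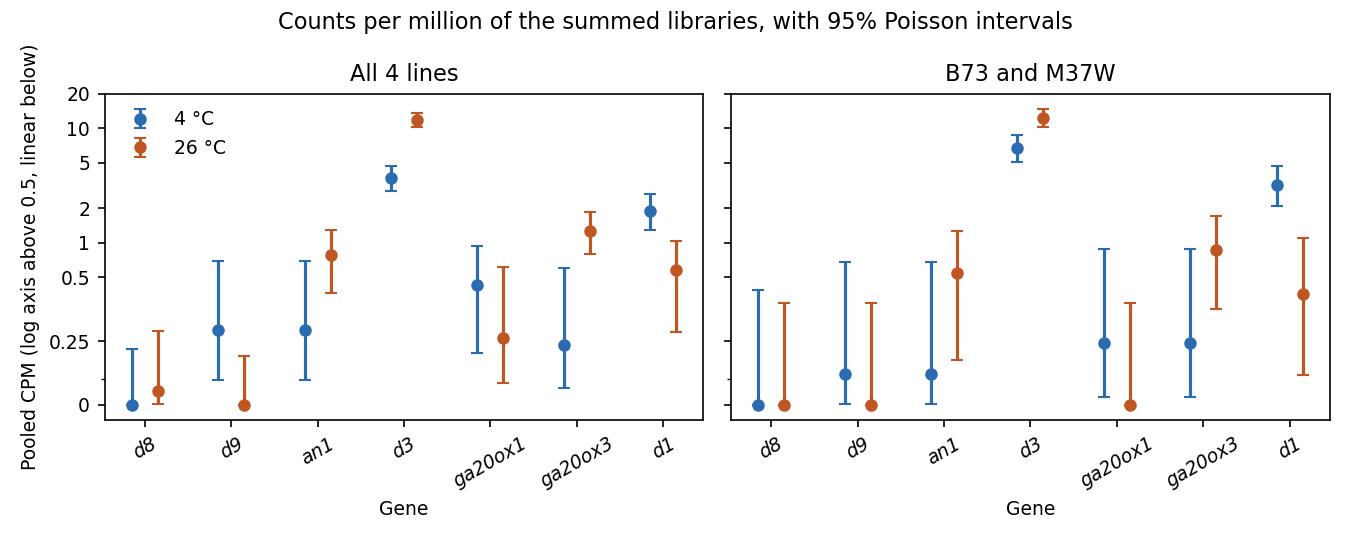
CPM of the summed chilled (4 °C) and control (26 °C) libraries for each gene, over all lines (left) and over B73 and M37W (right), with 95% exact Poisson intervals that cover counting error only. The y axis is logarithmic above 0.5 and linear below. Over B73 and M37W the intervals of d3 and d1 lie apart, with d3 lower and d1 higher in chilled leaves.

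Summed over B73 and M37W, d3 had 55 chilled and 114 control counts (CPM ratio 0.545, 95% interval 0.387 to 0.758), and d1 had 26 chilled and 4 control counts (ratio 7.34, 95% interval 2.55 to 28.9). The d3 ratio combines B73, with a ratio of 0.294, and M37W, with a ratio of 0.959. In B73 the chilled libraries thus lay below their controls for d3 and above them for d1. Over the 14 libraries other than the B104 controls, Pearson's r of log2(CPM + 1) between d3 and d1 was 0.205, and that between d3 and ga20ox3 was 0.149. Among all pairs of the genes other than d8, r ran from -0.472 (d3 and d9) to 0.216 (an1 and ga20ox1). Such values are too weak in such sparse counts to read. The IDs whose pattern was most like d3 over these 14 libraries were Zm00001d037978 (r = 0.942) and Zm00001d007858 (r = 0.938), and the one most like d9 was Zm00001d053835 (r = 0.879, from 5 counts of d9). These r are the highest found among all other IDs that passed the low-count filter, a search that itself favours high values. They describe libraries that share lines and temperatures. No other gibberellin gene could be added, since 0 of 34 further symbols were paired with an ID of the files.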

How the data were processed

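The authors deposited 1 table of whole-number counts per gene ID for each of the 16 libraries, with no normalization. The QuantSeq forward kit used for the libraries reads the 3′ end of polyadenylated RNA, per the labels' protocols, and STAR and edgeR are named, per the submitters' processing notes. No source used here names the build or annotation, or says how reads beyond an annotated 3′ end were handled. The 4 further tables, 1 per line, were not used. Gene names came with the choice of the 7 IDs. The RefSeq gene table held 4 of these names as a symbol or synonym and 0 of the nuclear IDs.

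Levels are CPM of the library total. Counts were tested with edgeR 4.0.16 in R 4.3.3 (filterByExpr, TMM, 1 robust quasi-likelihood fit of the 8 groups, Benjamini-Hochberg adjustment over 17410 genes, called under 0.05, two-sided). Each SE was taken from the fold change and its F. Genes below the filter were tested exactly, permuting temperature within lines (1296 arrangements) on log2(CPM + 1), with no adjustment. Counting intervals are exact (Poisson, or binomial for ratios) and cover counting error only. The fit and the permutation were checked on simulated data. The alternatives included voom in limma 3.58.1, DESeq2 1.42.0, other scalings, no filter, subsets of libraries, replicate blocks, each library left out, and other pseudocounts. Leaving out the B104 libraries or chilled CML333 replicate 2 in the permutation test, its application to d3, the contrast of the B73 and M37W responses and the IDs nearest to d3 were chosen after seeing the data. All 7 genes were named; for d8 and d9 the nearest ID was to be named, and d8 has none, with no count in those 14 libraries. The members, lists and tests were chosen with earlier results of these data known.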

Additional observations from a re-analysis of the deposited data

How the results depend on the processing

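Among 16 fits that each left out 1 library, and the other settings run, the number of the 7 genes called stayed at 1 in B104 and at 0 in M37W, CML333 and both comparisons of B73 with M37W, with the CML333 libraries alone not tested because d3 missed the filter there. In B73 it was 1 instead of 0 with the B73 and M37W libraries, where 27.8% of genes were called, and with the B73 libraries alone. For the mean response it was 0 instead of 1 with the B73 and M37W libraries and without the B104 controls, and 0 to 2 with 1 library left out, where d1 was also called without control B104 replicate 2 (edgeR adjusted p = 0.046) or chilled CML333 replicate 2 (0.0342). For any difference among the responses it was 1 instead of 0 with DESeq2, voom and no filter, and 0 to 1 with 1 library left out. For lines at 4 °C it was 0 with B73 and M37W, and 0 to 1 with 1 library left out. For lines at 26 °C it was 0 with B73 and M37W, and 0 to 1 with 1 library left out. Genes other than d3 did not enter the fit of all 16 libraries and could not be called there. Most of these settings are given without their share of all genes called. The counts thus show only whether a call depends on the setting. The causes were not tested.

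The replicate number of the titles as a block took the call at 4 °C to 0, and the numbers in the descriptions took those at 4 °C and 26 °C to 0; no other count of called genes changed. Same-numbered libraries hardly deviated together (r -0.0382 to 0.103 over the lines), so the numbers are not taken as pairs.

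Near 0, the d3 fold change of M37W turned to -0.046 with library totals, -0.0029 with B73 and M37W and -0.0086 with the title block, and ran from -0.463 to 0.706 with 1 library left out. That of CML333 ran from -4.74 to 0.545 and that of B73 minus M37W at 26 °C from -0.0529 to 1.11. The d8 to d9 difference ran from -0.468 to -0.308 with 1 library left out, and its p was under 0.05 in 2 of 16 such tests. Of the 6 low genes, 1 passed in the exact test, 0 with a pseudocount of 0.5 CPM, and 0 to 3 with 1 library left out. In B73 and M37W alone the number was 0, but no gene could pass there. The smallest p that their 8 libraries allow is 0.0556, which d1 reached in the exact permutation test. The 0 of that subset therefore does not show a lost call. The mean d3 response was -2.61 without chilled B104 replicate 2 and -2.69 without chilled CML333 replicate 1. In each case the remaining chilled library of that line is at 0. These values, and the CML333 value of -4.74, are therefore no bounds. Scaling by library totals moved the median of all genes by -0.27 in B73 and -0.15 in the mean response, where d3 came to -1.72 and -1.80. With 1 read worth 0.370 to 0.562 CPM, depth limits the 6 low genes in every line, and d3 in chilled B104 and in CML333.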
